A study of Mus musculus with 12 samples.

Results

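Fibronectin (Fn1), the matricellular genes Tnc, Postn, Sparc, Thbs1 and Thbs2, the lysyl oxidase genes Lox, Loxl1 and Loxl2, and the microfibril gene Fbn1 were followed through healing skin wounds. They were taken by gene name from the deposited expression tables and are 10 of the 55487 genes listed there. The wounds were full-thickness punch wounds on the backs of male C57BL/6JNarl mice aged 6 weeks. The sham group received 200 µL of Pluronic F127 gel alone once daily, and the CAP group received the same volume of gel carrying capsaicin, the pungent compound of chili peppers, at 10 µM. Wounds were collected on day 3 and day 6, with 3 libraries in each of the 4 groups and 12 in all. Every group carried the wound and the gel, so neither is tested here, and no unwounded skin was analysed. The labels do not say which libraries came from the same mouse, so the p-values measure the spread between these libraries.

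Matricellular proteins are secreted into the matrix but act mainly on how cells attach, move and signal rather than as load-bearing fibres, and several of them are low in resting skin and appear in granulation tissue. Fibronectin forms the provisional matrix on which fibroblasts enter a wound. Lysyl oxidases convert lysine side chains in collagen and elastin to aldehydes, which then form crosslinks, and fibrillin-1, the product of Fbn1, builds the microfibrils that carry elastin and store latent TGF-β. In bulk tissue a lower level can stand for fewer cells of a type or for less RNA per cell, and these cannot be told apart.

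The sequence upstream of the start site is shown for Tnc, Postn and Thbs2, because Tnc and Postn gave the clearest differences by treatment and by day among these genes and Thbs2 is set against Thbs1 in the ratio described later. RefSeq windows on GRCm38.p6 were found for 5 of the 10 genes, and in these 3 the window shown lay within 100 bases of the deposited 5′ end and touched no annotated exon. The windows of Sparc and Fbn1 began farther away, and Fn1, Thbs1, Lox, Loxl1 and Loxl2 had none. Each run gives the 250 bases before the start, written 5′ to 3′ on the strand of the gene, with every match to a searched motif in capitals. Tnc lies at chr4:64047016-64047265 on the minus strand, Postn at chr3:54360857-54361106 on the plus strand and Thbs2 at chr17:14694263-14694512 on the minus strand.
Tnc: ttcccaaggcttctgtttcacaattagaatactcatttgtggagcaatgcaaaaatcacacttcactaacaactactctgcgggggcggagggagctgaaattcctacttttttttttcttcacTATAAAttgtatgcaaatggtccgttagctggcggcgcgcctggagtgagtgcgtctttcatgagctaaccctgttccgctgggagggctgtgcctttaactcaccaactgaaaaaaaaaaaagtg
Postn: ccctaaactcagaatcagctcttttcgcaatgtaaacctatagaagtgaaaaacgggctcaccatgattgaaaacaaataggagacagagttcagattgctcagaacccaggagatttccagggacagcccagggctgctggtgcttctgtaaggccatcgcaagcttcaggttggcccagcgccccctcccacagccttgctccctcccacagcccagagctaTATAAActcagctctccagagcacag
Thbs2: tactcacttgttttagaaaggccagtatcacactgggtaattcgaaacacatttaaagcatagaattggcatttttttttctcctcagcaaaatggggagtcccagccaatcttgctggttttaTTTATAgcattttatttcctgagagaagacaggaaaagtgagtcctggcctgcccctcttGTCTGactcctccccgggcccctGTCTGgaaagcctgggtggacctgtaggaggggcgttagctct
The capitals in Tnc mark the TATA box letters TATAAA at 126 to 121 bases before the start, and those in Postn mark the same letters at 26 to 21 bases before it. In Thbs2 the letters lie on the other strand, read as TTTATA at 126 to 121 bases, and the SMAD letters CAGAC, read as GTCTG, lie at 66 to 62 and at 43 to 39 bases. Another Tnc window, with its start 79 bases from the deposited 5′ end, overlapped 1 annotated exon and is not shown. It held the same TATAAA and, at 70 to 66 bases before its own start, the SMAD letters read as GTCTG. Both strands were searched over all 32851 windows of the RefSeq table. TATAAA occurred in 12.4% of them and CAGAC in 42.2%. The AP-1 letters TGANTCA (6.75% of windows), the TEAD letters GGAATG (12.6%) and the hypoxia response letters ACGTG (16.6%) were not among the letters of these 3 windows. These matches are descriptions of the sequence and were not tested as binding sites.

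Values are TPM, a transcript level corrected for transcript length and scaled to the same total in each library, and read depth cannot be recovered from it. Between 18533 and 19325 genes per library reached 0.3 TPM, and Pearson's r between libraries of 1 group ran from 0.956 to 0.975. The second CAP library of day 6 stood apart. Its 10 highest genes held 14.1% of all TPM against 8.27% to 11.3% in the other libraries, and the keratin Krt10, a marker of differentiated keratinocytes, reached 40801 TPM there. It was also the lowest library of its group for 9 of the 10 genes studied. The day 6 differences of Tnc, Thbs1, Lox and Loxl2 are given with and without it. Cell type markers, the named genes of other lists and the CAP differences averaged over days, apart from that of Tnc, are given only with it and may depend on it.

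Together the 10 genes held 0.434% to 1.10% of all TPM in a library. Sparc, a collagen-binding matricellular protein, made up 48.0% to 60.3% of their sum and ranked 25 among all genes by mean level. Postn ranked 115, Fn1 125 and Lox 341, followed by Thbs1 at 540, Loxl1 at 595, Loxl2 at 638, Fbn1 at 701, Tnc at 720 and Thbs2 at 1197. In each of the 4 groups all 3 libraries had more Sparc than any library had of the gene next in order, and Thbs2 had the lowest mean. Most neighbours between these ends had overlapping ranges. The ranges did not overlap between Postn and Lox in sham wounds of day 3, between Postn and Thbs1 and between Lox and Loxl1 in CAP wounds of day 3, between Fn1 and Lox on day 6 in either group, or between Lox and Thbs1 and between Fbn1 and Thbs2 in sham wounds of day 6.

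**Figure D1:**
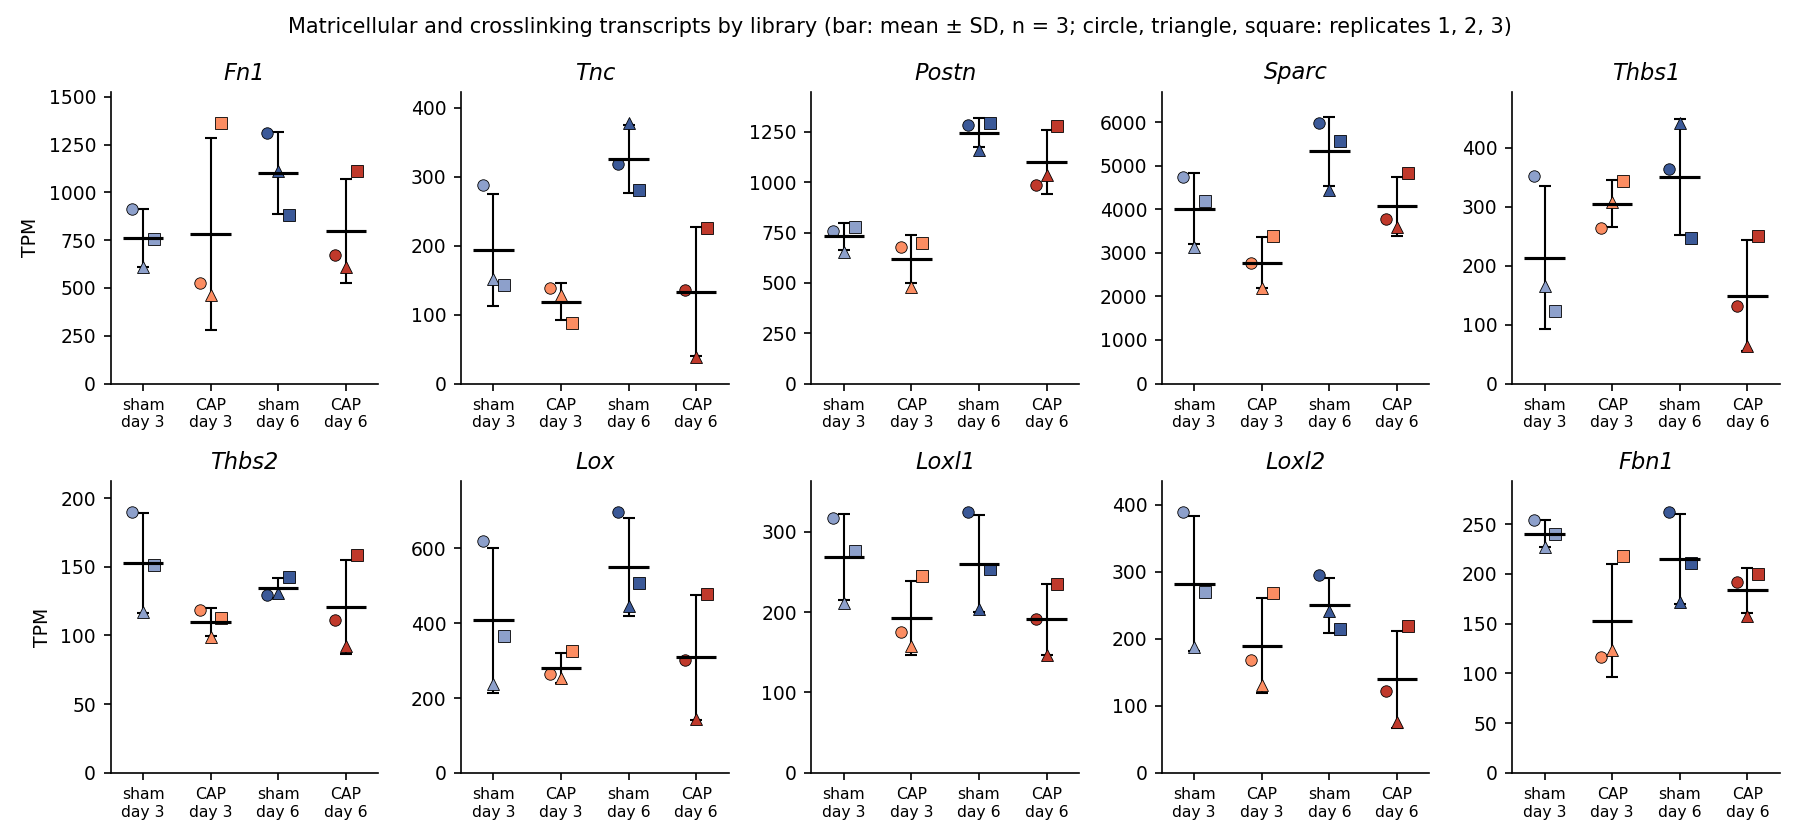
TPM of each of the 10 genes (vertical axes, each from 0) in the 3 libraries of each group, with the mean as a line and the SD as an error bar. Postn on day 6 lies above Postn on day 3 in both treatments. Its lowest day 6 library had 985 TPM and its highest day 3 library 779 TPM. Tnc on day 6 is higher in every sham library than in any CAP library.

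The comparison of CAP with sham wounds asks whether capsaicin in the gel altered these transcripts. A gene was taken as past the threshold when limma, a linear model fitted over all genes, gave an unadjusted p under 0.05 with at least a 2-fold difference, and adjusted p-values are Benjamini-Hochberg values over all genes tested. On day 3 no member was past the threshold, where 1.58% of the 18330 genes tested were, in either direction. Their log2 differences were below 0 for 9 of 10, against 62.2% of all genes, with a median of -0.47 against -0.05 over all genes. An unadjusted p under 0.05 with a lower level was found for 2 of 10, Thbs2 and Fbn1, where 5.14% of all genes met that rule, and neither had an adjusted p under 0.05.

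Fbn1 (chr2:125300594-125507993, minus strand) had 254, 227 and 241 TPM in sham wounds of day 3 and 117, 123 and 218 TPM in CAP wounds. All 3 CAP libraries were below all 3 sham libraries, although the third CAP library came near them. The difference was -0.71 (SE 0.24, 95% interval -1.27 to -0.15, limma p = 0.0196, adjusted p = 0.692, exact permutation p = 0.1, the smallest that 3 against 3 allows). Without the third CAP library the gene was past the threshold. Thbs2, which encodes an inhibitor of angiogenesis that also affects collagen fibril assembly (chr17:14665500-14694235, minus strand), had 190, 117 and 152 TPM in sham and 119, 98.7 and 113 TPM in CAP wounds of day 3. The groups overlapped through the second sham library alone. The difference was -0.45 (SE 0.18, limma p = 0.0418, adjusted p = 0.734, exact permutation p = 0.2), and without that library -0.63.

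The 3 CAP libraries also lay below the 3 sham libraries for Tnc on day 3, so 2 of 10 genes had groups that did not overlap with CAP lower, against 8.75% of all genes. Tnc, which encodes tenascin-C, a protein that loosens cell adhesion to fibronectin, had 288, 151 and 142 TPM in sham and 139, 129 and 88.2 TPM in CAP wounds. Its first sham library stood far above the other two, and the difference of -0.66 (limma's adjusted p = 0.790, exact permutation p = 0.1) was -0.33 without it. Thbs1 was the exception in direction. Its level was 352, 166 and 123 TPM in sham and 264, 309 and 343 TPM in CAP wounds, with overlapping groups and a difference of 0.65 (95% interval -0.21 to 1.51, limma's adjusted p = 0.834, exact permutation p = 0.4). Without the first sham library the difference was 1.09 and past the threshold.

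The other 6 genes gave no p under 0.05 on day 3. Fn1 differed by -0.12 (95% interval -1.09 to 0.85), and the third CAP library, at 1361 TPM, was the highest of all 12 libraries while the other two were at 527 and 462 TPM. Sparc differed by -0.53 and Loxl1 by -0.48 (exact permutation p = 0.2 for each), and Postn, Lox and Loxl2 ran from -0.25 to -0.57. In the genes of the same pathways chosen beside the members, none of 16 tested matricellular genes, 24 crosslinking and collagen processing genes, 17 microfibril and elastic fibre genes or 10 fibrillar collagens was past the threshold. In these 4 lists, in that order, 2, 4, 7 and 4 genes met the rule of a lower level with an unadjusted p under 0.05, as did 5.14% of all genes. Of 21 tested receptor genes 1 was higher, Cd36, a thrombospondin and lipid receptor, by 1.23 (limma's adjusted p = 0.692).

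On day 6 all 10 members had a log2 difference below 0, against 65.7% of all genes, with a median of -0.47 against -0.12. Tnc and Thbs1 were past the threshold and lower in CAP wounds, 2 of 10 where 2.34% of the 18323 genes tested were. An unadjusted p under 0.05 with a lower level was found for 3 of 10, with Loxl2 beside them (limma p = 0.0309, exact permutation p = 0.2), against 12.5% of all genes. No adjusted p of a member was under 0.05. Median-ratio scaling of the libraries moved the median of all genes on day 6 from -0.12 to -0.01 and the genes past the threshold from 268 higher and 429 lower to 393 and 298 (409 and 252 by quantile normalization), while all 10 members stayed below 0 with either scaling.

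Tnc (chr4:63959785-64047015, minus strand) had 319, 378 and 280 TPM in sham wounds of day 6 and 136, 38.3 and 225 TPM in CAP wounds. Every CAP library was below every sham library, with the second CAP library far below the rest. The level fell by 1.61 on the log2 scale, 3.06-fold (SE 0.59, 95% interval -3.00 to -0.22, limma p = 0.0288, adjusted p = 0.233, exact permutation p = 0.1, the smallest that 3 against 3 allows). It was -0.88 without the second CAP library, and the threshold was passed in 2 of the 6 fits that left out 1 library, those without the first or the third CAP library. Tnc was the 1 member of 10 whose groups did not overlap with CAP lower, where 18.0% of all genes had that pattern.

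Thbs1 encodes thrombospondin-1, a platelet and tissue protein that releases TGF-β from its latent form and restrains angiogenesis (chr2:118111876-118127133, plus strand). It had 364, 442 and 247 TPM in sham and 131, 64.4 and 251 TPM in CAP wounds of day 6. The groups overlapped, as the third CAP library lay just above the third sham library. The level fell by 1.41, 2.65-fold (SE 0.47, 95% interval -2.53 to -0.29, limma p = 0.0209, adjusted p = 0.225, exact permutation p = 0.2). Without the second CAP library the difference was -0.91, and the threshold was not passed without that library, the first sham library or the second sham library.

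Among the lysyl oxidases the day 6 differences were -0.97 for Lox (95% interval -1.95 to 0.02, limma's adjusted p = 0.265), -0.96 for Loxl2 (95% interval -1.81 to -0.12, adjusted p = 0.234) and -0.45 for Loxl1 (adjusted p = 0.312). Lox (chr18:52516067-52529867, minus strand), the founding enzyme of the family, had 696, 445 and 506 TPM in sham and 302, 145 and 479 TPM in CAP wounds. Loxl2 (chr14:69609068-69695834, plus strand), which also acts on basement membrane collagen, had 294, 241 and 214 TPM in sham and 122, 76.5 and 219 TPM in CAP wounds. In both genes the third CAP library lay inside the sham range and the other CAP libraries below it. Without the third CAP library both were past the threshold, at -1.37 for Lox and -1.36 for Loxl2, and without the second they were -0.51 and -0.60.

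Loxl1 (chr9:58287738-58313186, minus strand), which acts mainly on elastin, had 324, 204 and 253 TPM in sham and 191, 147 and 235 TPM in CAP wounds of day 6, again with the third CAP library inside the sham range. Fn1 (chr1:71585520-71653200, minus strand) had 1308, 1114 and 881 TPM against 670, 611 and 1112 TPM, a difference of -0.50 (limma's adjusted p = 0.326). Sparc (chr11:55394500-55423183, minus strand) had 5975, 4440 and 5576 TPM against 3768, 3587 and 4840 TPM, a difference of -0.39 (limma's adjusted p = 0.350). Postn (-0.19, 95% interval -0.54 to 0.16), Thbs2 (-0.19, -0.65 to 0.27) and Fbn1 (-0.21, -0.63 to 0.20) had the smallest differences, each with an interval on both sides of 0.

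**Figure D2:**
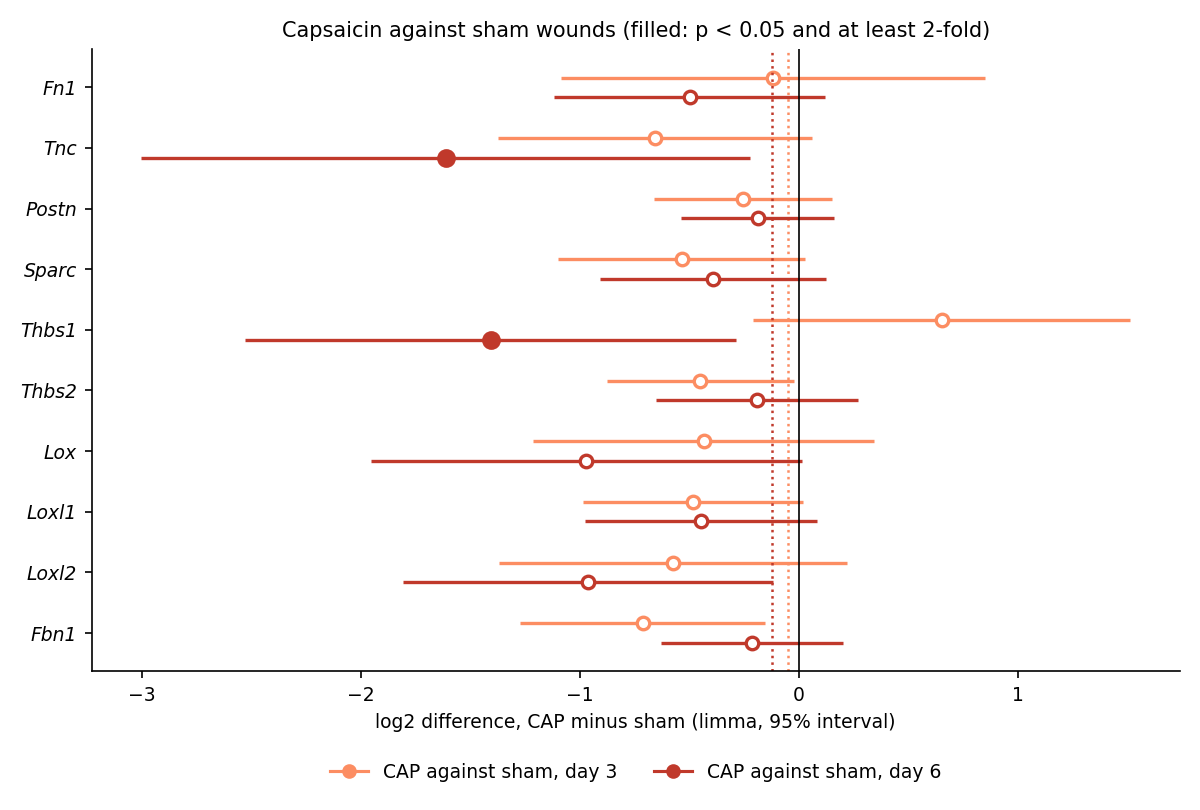
Log2 difference of CAP from sham wounds (horizontal axis) for each gene on day 3 and day 6, with limma's 95% intervals, filled points for genes past the threshold and dotted lines at the median of all genes. Tnc and Thbs1 on day 6 are the filled points, at -1.61 and -1.41, and Thbs1 on day 3 is the only point above 0, at 0.65.

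Other genes of the pathway were lower on day 6 too. Among 24 crosslinking and collagen processing genes 3 fell past the threshold, against 2.34% of all genes, and 15 had an unadjusted p under 0.05 with a lower level, against 12.5%. Their median was -0.70 against -0.12 over all genes. The 3 were Plod2, a lysyl hydroxylase that prepares collagen for crosslinking (-1.63, limma's adjusted p = 0.242), Tgm2, a transglutaminase (-1.18, adjusted p = 0.208), and Loxl3, a further lysyl oxidase (-1.08, adjusted p = 0.226). Of 17 tested matricellular genes 3 fell, Tnn, a tenascin (-1.93, limma's adjusted p = 0.229), Ccn1 (-1.39, adjusted p = 0.206) and Ccn4 (-1.30, adjusted p = 0.210). Emilin1 and Ltbp2 fell among 17 microfibril genes, Col24a1 and Col11a1 among 10 collagens and Itga5, the fibronectin receptor subunit, with Itga1 among 22 receptor genes. By an unadjusted p under 0.05 alone, 5 of the matricellular, 5 of the microfibril, 4 of the collagen and 7 of the receptor genes were lower. For the crosslinking genes the count of 3 was 0 without the second CAP library, 11 without the third and 1 without any 1 sham library, and in each of the other 4 lists it stayed between 0 and 4. Over all genes the 429 past the threshold and lower were 171 without the second CAP library and 1025 without the third, so the counts of members and lists on day 6 moved with those of the whole table.

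Markers of several cell types moved with these values. On day 6 the myofibroblast markers Acta2 (-1.53), Tagln (-1.32) and Myl9 (-1.01) were past the threshold and lower in CAP wounds, 3 of 10 on that list. The same held for 3 of 9 endothelial, 2 of 12 macrophage and 1 of 8 tested neutrophil markers, against 2.34% of all genes. All 8 neutrophil markers had differences below 0, with a median of -1.24, and Ly6g, Ngp and Camp of that list were at 0 in at least 1 library. Of 7 adipocyte markers 1 was past the threshold and higher, against 1.46% of all genes, with a median of 0.76 and 1 of the 7 below 0. The keratinocyte markers Krt1 (1.86) and Krt10 (1.62) were higher, 2 of 10, while 4 of the 10 had differences below 0, down to -0.39, and the list median was 0.27. The summed level of that list, to which Krt10 gave up to 40801 TPM in 1 library, was 34280 to 43131 TPM in sham and 48921 to 100462 TPM in CAP wounds. No fibroblast marker of 12 was past the threshold in either comparison of CAP with sham, with a summed level of 3413 to 3860 TPM in sham and 2331 to 3039 TPM in CAP wounds of day 3, and 3806 to 4988 against 3529 to 4198 TPM on day 6. By the rule of an unadjusted p under 0.05 with a lower level, 6 of the 12 fibroblast markers met it on day 3, against 5.14% of all genes, and 5 on day 6, against 12.5%. Their median was -0.47 on day 3, where that of the members was also -0.47, and -0.37 on day 6. None of the fibroblast, myofibroblast, macrophage, endothelial or keratinocyte markers was at 0 in any library. The part of these cell types in the results was not tested.

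Averaged over both days, CAP wounds had lower values for all 10 genes, against 66.5% of all genes, with a median log2 difference of -0.46 against -0.08. Tnc was past the threshold, 1 of 10 where 1.40% of the 20267 genes tested were past it and lower. Its difference was -1.14 (SE 0.37, limma p = 0.0106, adjusted p = 0.186), and the exact permutation test within days gave p = 0.005, the smallest that 400 arrangements allow. Without the second CAP library of day 6 it was -0.77, and it did not pass without that library or the first sham library of day 3. An unadjusted p under 0.05 with a lower level was found for 7 of 10, against 13.5% of all genes, and none of these had an adjusted p under 0.05. The same rule was met by 19 of 24 crosslinking and collagen processing genes, 9 of 10 fibrillar collagens and 7 of 12 fibroblast markers. It was also met by 7 of 17 matricellular, 8 of 17 microfibril and 7 of 22 receptor genes. Medians were -0.55 for the crosslinking genes, -0.60 for the collagens and -0.40 for the fibroblast markers, so lower values were not particular to the members.

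The 7 members that met this rule were Tnc, Sparc, Thbs2, Lox, Loxl1, Loxl2 and Fbn1. Loxl2 differed by -0.77 (limma p = 0.0163, exact permutation p = 0.035) and Lox by -0.70 (limma p = 0.0360, exact permutation p = 0.065). Loxl1, Sparc and Fbn1 each differed by -0.46, with limma p-values from 0.0138 to 0.0179 and exact permutation p-values from 0.02 to 0.045. Thbs2 differed by -0.32 (limma p = 0.0460, exact permutation p = 0.08). For Fn1, Postn and Thbs1 the averages were -0.31, -0.22 and -0.38 with p-values above 0.05.

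The comparison of day 6 with day 3 follows the course of healing within 1 treatment. In sham wounds no member was past the threshold, where 3.75% of the 18368 genes tested were, in either direction. An unadjusted p under 0.05 with a higher level was found for 3 of 10, Postn, Tnc and Fn1, against 8.05% of all genes, and for 1 of them, Postn, the adjusted p was under 0.05, which 1.14% of all genes reached with a higher level. Postn was also the 1 member whose groups did not overlap with day 6 higher, against 10.8% of all genes.

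Postn encodes periostin, a matricellular protein of fibroblasts that aids collagen fibril assembly and fibroblast migration (chr3:54361109-54391037, plus strand). In sham wounds it had 757, 656 and 779 TPM on day 3 and 1282, 1162 and 1293 TPM on day 6, so each day 6 library lay well above each day 3 library. It rose by 0.77, 1.71-fold (SE 0.11, 95% interval 0.51 to 1.03, limma p = 1.96e-04, adjusted p = 0.0235, exact permutation p = 0.1, the smallest possible). Over the fits that left out 1 library the change was 0.70 to 0.82 and the adjusted p 0.0341 to 0.0996, and it was above 0.05 in 4 of those 6 fits. Under the other settings tried it was 0.0220 to 0.125, and above 0.05 with no filter on low genes and in a joint fit of all groups. In CAP wounds Postn had 680, 481 and 697 TPM on day 3 and 985, 1034 and 1280 TPM on day 6, again without overlap, and was higher by 0.84, 1.79-fold (SE 0.19, limma p = 0.00377, adjusted p = 0.295, exact permutation p = 0.1). Its day 6 minus day 3 difference did not differ detectably between the treatments (0.07, 95% interval -0.43 to 0.56).

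Averaged over treatments, Postn rose by 0.81, 1.75-fold (SE 0.11, limma p = 1.87e-05, adjusted p = 0.0137, exact permutation p = 0.005, the smallest possible). The adjusted p was 0.00906 to 0.0466 over the 12 fits that left out 1 library. It was the 1 member of 10 with an adjusted p under 0.05, which 0.543% of all genes reached with a higher level. Sparc was the second of 2 members with an unadjusted p under 0.05 and a higher level, against 7.18% of all genes, at 0.49 (limma p = 0.0106, adjusted p = 0.146, exact permutation p = 0.015). No member was past the threshold, where 3.26% of all genes were, in either direction.

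In sham wounds Tnc had 288, 151 and 142 TPM on day 3 and 319, 378 and 280 TPM on day 6, a difference of 0.81 (limma p = 0.0184, adjusted p = 0.199, exact permutation p = 0.2). The first day 3 library lay inside the day 6 range. Fn1 had 914, 610 and 757 TPM on day 3 and 1308, 1114 and 881 TPM on day 6, a difference of 0.53 (limma p = 0.0286, adjusted p = 0.239, exact permutation p = 0.2), with the first day 3 library just above the third day 6 library. Fbn1, Loxl1, Loxl2 and Thbs2 differed by -0.05 to -0.18 between the days in sham wounds, and all their intervals crossed 0. Beside the members, 2 of 17 tested matricellular genes were past the threshold and higher on day 6 in sham wounds, Tnn (1.66) and Ccn1 (1.06), and 1 was lower, Ccn3 (-1.32). None of 24 crosslinking and 17 microfibril genes was past it, with 1 of 10 collagens higher, Col11a1 (1.49), and 1 of 22 receptor genes, Itga1 (1.15).

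In CAP wounds Thbs1 was the 1 member past the threshold, lower on day 6, where 1.52% of the 18202 genes tested were. It had 264, 309 and 343 TPM on day 3 and 131, 64.4 and 251 TPM on day 6, with every day 6 library below every day 3 library. It fell by 1.24, 2.36-fold (SE 0.45, 95% interval -2.32 to -0.16, limma p = 0.0299, adjusted p = 0.386, exact permutation p = 0.1, the smallest possible). The threshold was passed in 1 of the 6 fits that left out 1 library, that without the third day 6 library, and without the second the difference was -0.74. Groups without overlap were found with day 6 lower for 1 of 10 members, against 9.63% of all genes, and with day 6 higher for 2 of 10, Postn and Sparc, against 8.05%. The same 2 had an unadjusted p under 0.05 with a higher level, against 5.66% of all genes. For Sparc that p was 0.0499 by limma (exact permutation p = 0.1), with 2759, 2194 and 3377 TPM on day 3 and 3768, 3587 and 4840 TPM on day 6. Of the other lists in CAP wounds, the osteopontin gene Spp1 was past the threshold and lower on day 6 among the matricellular genes (-1.79), the elastin gene Eln (1.09) and the microfibril gene Mfap4 (1.46) were higher, and the receptor genes Itgb7 (-1.57), Cd36 (-1.51) and Itgb6 (-1.18) were lower.

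**Figure D3:**
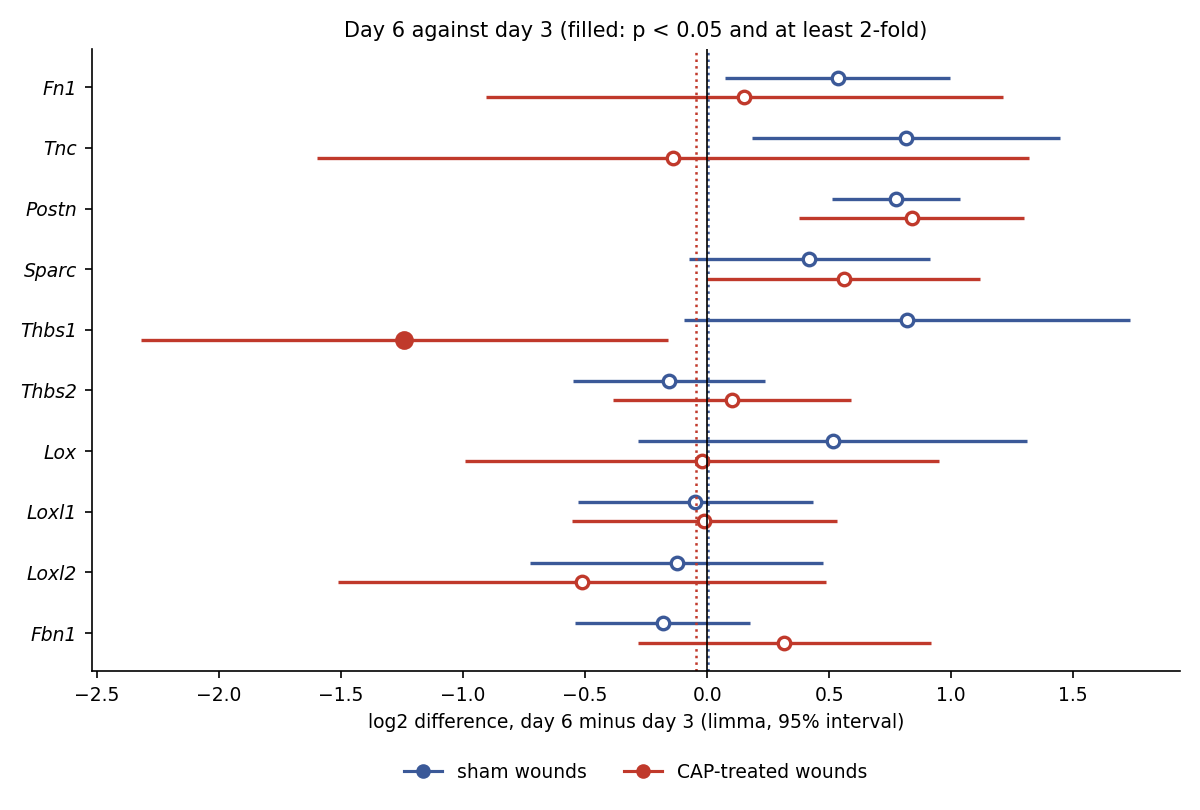
Log2 difference of day 6 from day 3 (horizontal axis) for each gene within sham and within CAP wounds, with limma's 95% intervals, filled points for genes past the threshold and dotted lines at the median of all genes. Postn lies at 0.77 and 0.84 in the 2 treatments, and Thbs1 lies at 0.82 in sham and at -1.24 in CAP wounds.

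The effect of CAP was compared between the days as the day 6 difference minus the day 3 difference. Thbs1 was the 1 member past the threshold, where 2.73% of the 20267 genes tested were past it and lower. Its sham level went from a mean of 214 ± 122 to 351 ± 98.3 TPM and its CAP level from 305 ± 39.5 to 149 ± 94.3 TPM (SD, n = 3 each). The difference of differences was -2.06 (SE 0.67, 95% interval -3.52 to -0.60, limma p = 0.0102, adjusted p = 0.428, exact permutation p = 0.04 with treatments exchanged within days). It was past the threshold in all 12 fits that left out 1 library, from -2.54 to -1.56, and its adjusted p stayed above 0.05 in each. For the other 9 members the values ran from -0.96 for Tnc (limma's adjusted p = 0.603) to 0.50 for Fbn1 (adjusted p = 0.532), and none had an unadjusted p under 0.05. In the other lists Spp1 (-1.97), Tgm2 (-1.39), Cd36 (-1.40), Itga1 (-1.26) and Emilin1 (-1.20) were past the threshold and lower, and Ccn3 (1.68) was higher.

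Platelet markers, which matter beside Thbs1 because platelets carry thrombospondin-1, moved in part in the same direction. For the difference of effects 7 of 9 could be tested. Pf4 (-1.35), Ppbp (-2.34) and Treml1 (-2.11) were past the threshold and lower. Gp9 (-2.93) was also past it and lower, and Gp1bb (2.16) was past it and higher. On each day, however, both were under the level needed for testing in at least 1 group. Gp9 and Gp1bb were thus tested on neither day alone and entered here through the wider filter of this fit. Their values rest in part on levels near the floor, and no direction is read from them. Of the 9 markers 4 could be tested on day 3, where 2 were past the threshold and higher in CAP wounds, Ppbp (1.19) and Treml1 (1.24), and 4 on day 6, where Ppbp was lower (-1.15). Their summed level was 255 to 439 TPM in sham and 497 to 548 TPM in CAP wounds of day 3, and 146 to 203 against 82.4 to 143 TPM on day 6, so within sham wounds the sum was lower on day 6 while the mean of Thbs1 was higher. Gp9, Gp6 and Clec1b were at 0 in at least 1 library. Erythroid markers summed to 514 to 753 TPM in sham and 2357 to 2803 TPM in CAP wounds of day 3, and to 2113 to 5622 against 716 to 3184 TPM on day 6. The part of blood cells in the Thbs1 result was not tested.

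Ratios between members of 1 library do not depend on the scaling of that library. For each comparison 17 ratios were tested by exact permutation and adjusted over the 17. Thbs1/Thbs2 was 1.86, 1.42 and 0.812 in sham and 2.23, 3.13 and 3.04 in CAP wounds of day 3, and 2.81, 3.38 and 1.72 in sham and 1.18, 0.697 and 1.58 in CAP wounds of day 6. Every CAP library was above every sham library on day 3 and below every one on day 6. The log2 differences were 1.10 and -1.22, each with an exact permutation p of 0.1, the smallest possible. Their difference was -2.32 (exact permutation p = 0.005, the smallest possible, adjusted 0.0425), and -2.60 to -1.99 when 1 library was left out. This permutation exchanged treatments within each day, so it tests for no CAP effect on either day rather than for equal effects.

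Tnc/Postn was 0.249, 0.325 and 0.217 in sham and 0.138, 0.0371 and 0.176 in CAP wounds of day 6, without overlap (log2 difference -1.43, exact permutation p = 0.1). Without the second CAP library it was -0.74. On day 3 it was 0.381, 0.231 and 0.183 against 0.204, 0.268 and 0.127, and the groups overlapped. Lox/Loxl2 moved with time instead. It was 1.59, 1.26 and 1.36 in sham and 1.57, 1.92 and 1.22 in CAP wounds of day 3, and 2.37, 1.85 and 2.37 in sham and 2.47, 1.89 and 2.18 in CAP wounds of day 6. Averaged over treatments it was higher by 0.57 on day 6 (exact permutation p = 0.01, adjusted 0.034). Its CAP to sham difference on day 6 was -0.01, and -0.12 to 0.09 when 1 library was left out.

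**Figure D4:**
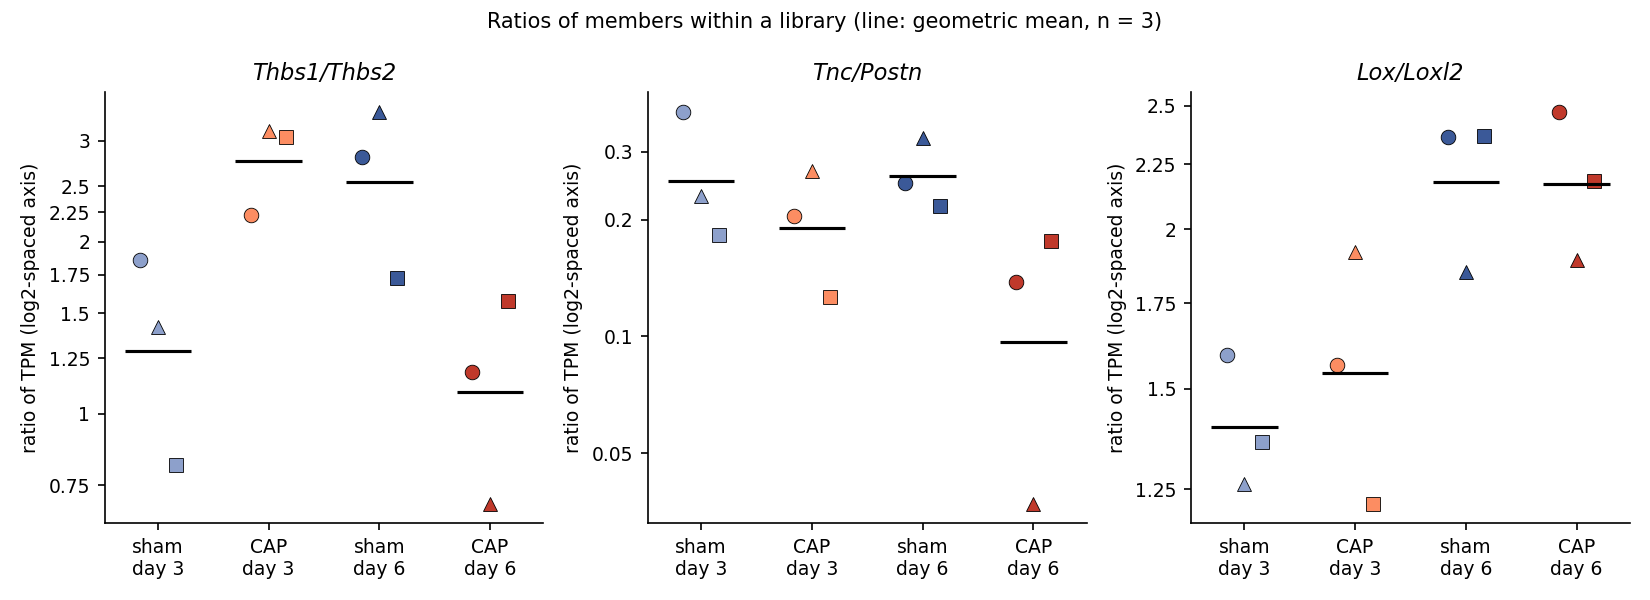
Ratios of TPM within each library (vertical axes, log2-spaced) for Thbs1/Thbs2, Tnc/Postn and Lox/Loxl2 in the 4 groups, with the geometric mean of 3 libraries as a line. Thbs1/Thbs2 lies above sham in CAP wounds of day 3, from 2.23 to 3.13, and below sham on day 6, from 0.697 to 1.58, while Lox/Loxl2 is mostly higher on day 6 in both treatments.

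The summed lysyl oxidases were also set against the sum of the fibrillar collagen genes Col1a1, Col1a2 and Col3a1, which encode substrates of these enzymes. The ratio was 0.0617, 0.0475 and 0.0516 in sham and 0.0562, 0.0588 and 0.0587 in CAP wounds of day 3, and 0.0551, 0.0497 and 0.0470 in sham and 0.0411, 0.0260 and 0.0477 in CAP wounds of day 6. In CAP wounds each day 6 library was below each day 3 library. The CAP and sham ranges overlapped on both days.

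Each member was further divided by the fibroblast markers Pdgfra, Pdgfrb, Dcn and Lum. Relative to these, Postn was still higher on day 6, by 0.38 averaged over treatments (exact permutation p = 0.005, adjusted 0.034). Thbs2 (-0.45), Loxl1 (-0.46) and Loxl2 (-0.74) were lower on day 6 on this scale (exact permutation p from 0.005 to 0.01, adjusted 0.034 each). Undivided, they differed by -0.03, -0.03 and -0.32, so for Thbs2 and Loxl1 the ratio fell mainly because the markers were higher on day 6. On day 6 Tnc per fibroblast marker differed by -1.15 between CAP and sham wounds with no overlap (exact permutation p = 0.1), and by -0.55 without the second CAP library. Postn and Thbs2 differed by 0.28 each in the other direction, also with no overlap (exact permutation p = 0.1 for each). The nearest sham and CAP ratios were 6.99 and 7.03 for Postn and 0.787 and 0.791 for Thbs2. Undivided, Postn and Thbs2 differed by -0.19 each, so both ratios were higher because the markers were lower in CAP wounds. None of the 17 ratios had an adjusted p under 0.05 for CAP against sham averaged over days, where Tnc per fibroblast marker gave -0.81 (exact permutation p = 0.025, adjusted 0.34), and -0.51 without the second CAP library of day 6.

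Within groups the 10 genes varied together. The first sham library of day 3 was the highest of its group for 9 of the 10 genes, the third CAP library of day 3 for 8, and the third CAP library of day 6 for all 10. The mean deviation of the 10 genes from their group means ran from -0.56 in the second to 0.56 in the third CAP library of day 6, and from -0.32 to 0.40 in the other libraries. Across the 12 libraries, after subtracting group means, all 45 pairs of members had a positive Pearson's r, with a median of 0.707. The highest was 0.934 for Sparc and Loxl1 and the lowest 0.0741 for Tnc and Fbn1. Lox was closest to Loxl2 (0.918), Tnc to Thbs1 (0.864), Postn to Sparc (0.861), Fn1 to Loxl2 (0.862), Thbs2 to Lox (0.880) and Fbn1 to Loxl1 (0.852).

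The libraries high for these genes were high for related lists as well. The same within-group deviations of the 10 genes had an r of 0.986 with those of the crosslinking and collagen processing genes, 0.962 with fibrillar collagens, 0.890 with macrophage markers, 0.662 with fibroblast markers and -0.680 with keratinocyte markers, over 12 libraries. Among 15346 genes the mean deviation was most alike in Coro1a (r = 0.998), an actin-binding protein of leukocytes, in Plod3 (0.991) and P4ha2 (0.989), which hydroxylate lysine and proline in collagen, in Trim46 (0.989) and in Selenon (0.987). All values of a library share its scaling and tissue make-up, so these correlations are descriptions.

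**Figure D5:**
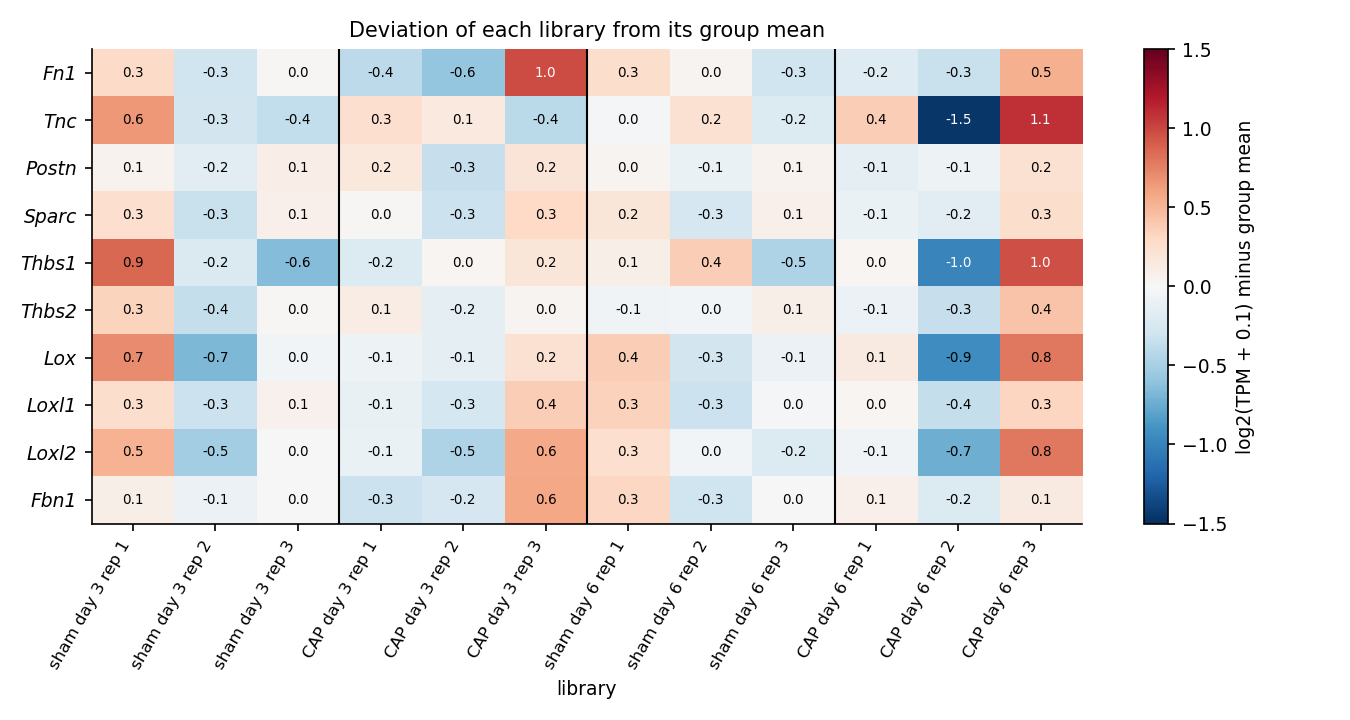
Difference of log2(TPM + 0.1) from the group mean (colour, log2) for each gene (rows) in each of the 12 libraries (columns). Columns tend to be of 1 colour. For all 10 genes the second CAP library of day 6 lies below its group mean and the third above it.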

How the data were processed

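The 12 wound libraries were mRNA-seq libraries made with an Agilent SureSelect kit. The submitters' processing notes name bcl2fastq, Trimmomatic 0.36 and the build mm10, and the study's methods name StringTie. The deposited values are TPM per gene made by the authors, and the tables were used as deposited. They sum to 1000003 in each library, so depth is not known, and a rise of abundant transcripts lowers all others. TPM per gene does not separate splice forms. Gene coordinates are those of the tables (55227 of 55487 identifiers were in GENCODE M21). An annotated gene overlaps Fn1, Tnc, Thbs1, Lox, Loxl2 and Fbn1, on the opposite strand except Mir6950 in Loxl2, and the sources used here do not say whether reads were counted by strand.

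Samples were grouped by their titles. For each comparison of 2 groups log2(TPM + 0.1) was fitted with limma 3.58.1 (R 4.3.3) over genes whose mean reached 0.3 TPM in both groups. Differences between or averages over days or treatments came from 1 fit of all 12 libraries. That fit took genes whose mean reached 0.3 TPM in at least 1 of the 4 groups, so its shares over all genes refer to this wider set. A fold change on this scale understates the change of low genes. Exact permutation tests were two-sided. The 10 genes and the lists set beside them were chosen with earlier results of these data known. Members were all described, and in the other lists the genes named are those past the threshold. Alternatives were another pseudocount, other filters, other scalings, a replicate block, a joint fit and leaving out each library. Python 3.11.15, numpy 2.4.6, pandas 2.3.3 and matplotlib 3.10.9 were used, and the fits were tested on simulated data.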

Additional observations from a re-analysis of the deposited data

Results flagged for a closer look

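The effect of CAP on Thbs1 differed between the days by -2.06 on the log2 scale (limma p = 0.0102, adjusted p = 0.428, exact permutation p = 0.04), as it was 0.65 on day 3 and -1.41 on day 6. The same difference for Thbs1/Thbs2 was -2.32 (exact permutation p = 0.005, adjusted over 17 ratios 0.0425). For Thbs2 relative to the fibroblast markers it was 0.54 (exact permutation p = 0.005, adjusted 0.0425), from -0.27 on day 3 to 0.28 on day 6, with CAP below sham in every library on day 3 and above on day 6. Undivided, Thbs2 had a lower mean in CAP wounds on both days, with log2 differences of -0.45 and -0.19. The permutations exchanged treatments within days and so test for no effect on either day. Platelet and erythroid values are given beside Thbs1, and their part was not tested.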

How the results depend on the processing

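Under the 7 or 8 other settings of each comparison (2 pseudocounts, no filter, 2 scalings, replicate block, robust estimation and, for single comparisons, a joint fit), 526 of 530 values of the 10 genes kept their direction and side of the threshold. The 4 exceptions were near 0, in day 6 against day 3 of CAP wounds, where Lox was 0.021 with median-ratio scaling and 0.029 with quantile normalization and Loxl1 was 0.029 and 0.043. The r of same-numbered deviations ran from -0.170 to 0.289 and that of other pairs from -0.274 to 0.250. For CAP against sham on day 6 same-numbered pairs had 0.032 to 0.117 and other pairs -0.103 to -0.004. In sham wounds over time these were 0.026 to 0.043 and -0.038 to 0.011, and in the remaining comparisons the ranges overlapped. The labels do not say what libraries of the same number share, so whether the replicate block fits the design is not known. With the replicate block the members with an unadjusted p under 0.05 went from 2 to 4 on day 3 and from 3 to 5 on day 6. They went from 3 to 6 in sham wounds over time and from 7 to 8 for CAP averaged over days. Over all genes, in the same order, these went from 1210 to 1244 of 18330, 3517 to 4146 of 18323, 2930 to 3210 of 18368 and 3585 to 4278 of 20267. Genes of the whole table with an adjusted p under 0.05 went from 0 to 246 in the last. With a pseudocount of 1 TPM the genes past the threshold went from 290 to 154 on day 3, 697 to 385 on day 6, 688 to 405 and 507 to 299 over time in sham and CAP wounds, 994 to 580 for the difference of effects, 660 to 191 for the averaged time effect and 380 to 77 for the averaged CAP effect. With no filter they were 568 on day 3 and 1156 and 842 over time in sham and CAP wounds. The cause was not tested. When 1 library was left out, 541 of 600 values held, 36 reversed, 14 lost and 9 gained a call. Members past the threshold then numbered 0 to 1 on day 3, 0 to 4 on day 6 (0 without the first or second sham or the second CAP library, 4 without the third CAP library), 0 to 2 over time in sham wounds, 0 to 1 in CAP wounds, 1 to 2 for the difference of effects and 0 to 1 for CAP averaged over days. Members with an adjusted p under 0.05 numbered 0 to 2 on day 6 and 0 to 2 over time in sham wounds. Over all genes on day 6, 1430 of 18148 had one without the third CAP library and 0 in each of the other 5 such fits. Over time in sham wounds 1 to 498 genes had one in such fits, and 420 of 18368 in the main fit. Ratios with an adjusted p under 0.05 numbered 0 to 2 for the difference of effects and 0 to 5 for the averaged time effect, where 200 arrangements were left. Ranges that crossed 0 were -0.60 to 0.18 for Fn1 on day 3. In sham wounds over time they were -0.34 to 0.013 for Thbs2, -0.22 to 0.12 for Loxl1 and -0.39 to 0.14 for Loxl2. In CAP wounds over time they were -0.14 to 0.64 for Fn1, -0.69 to 0.59 for Tnc, -0.12 to 0.28 for Thbs2, -0.42 to 0.44 for Lox and -0.18 to 0.18 for Loxl1. For the difference of effects they were -0.67 to 0.11 for Fn1, -0.11 to 0.16 for Postn, -0.017 to 0.31 for Sparc and -0.13 to 0.22 for Loxl1. For the averaged time effect they were -0.45 to 0.038 for Thbs1, -0.14 to 0.059 for Thbs2, -0.12 to 0.063 for Loxl1 and -0.014 to 0.21 for Fbn1. With 3 libraries a group and no counts, precision rests on the spread between libraries alone.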

Other observations

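Among genes outside those described above, 7 of 9 endothelial markers were past the threshold and higher on day 6 than on day 3 in sham wounds, among them Cldn5, a tight junction gene (1.95), Emcn (1.79) and Cdh5 (1.55). Their summed level was at most 158 TPM on day 3 and at least 313 TPM on day 6. Of 10 myofibroblast and mural cell markers 6 were past it and higher, among them Cnn1 (2.36), Tagln (1.47) and Rgs5 (1.45), while the more abundant Tpm2 (-0.61) and Des (-0.71) had lower levels, with no overlap between the days. The sum of that list was 1141 to 1389 TPM on day 3 and 1074 to 1240 TPM on day 6. The keratins Krt6a (-1.23) and Krt6b (-1.41), which mark keratinocytes at a wound edge, were lower. In CAP wounds over the same days Krt1 (1.90) and Krt10 (1.76) were past the threshold and higher, Krt6a (-1.32), Krt6b (-1.55) and Krt17 (-1.20) were past it and lower, and the median of the 10 keratinocyte markers was -0.69. The platelet genes Pf4 (-2.32) and Ppbp (-5.37) were lower on day 6 in these CAP wounds, and sham wounds had lower levels on day 6 as well. In sham wounds Pf4 had 234 to 396 TPM on day 3 and 133 to 191 TPM on day 6. Ppbp had 12.2 to 33.8 TPM on day 3 and 1.63 to 2.79 TPM on day 6 in sham wounds.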
